A study of Ginkgo biloba with 2 samples.

Results

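The miRNA names miR395 and miR2111, a sulphate family and a phosphate family of plants, were followed in mature leaves of ginkgo (Ginkgo biloba), a gymnosperm tree with separate sexes. They were taken by name from the authors' tables of known miRNAs and make up 2 of 723 known names. Small RNA was sequenced in 1 library of leaves from female trees and 1 library of leaves from male trees. Both came from healthy trees about 30 years old that grew under natural conditions, sampled in June 2012, and the labels leave unsaid if a library holds 1 tree or a pool. Depth was 13193290 reads for female leaves and 12137619 for male leaves, of which known names took 18.7% and 20.2%, and 530 and 532 names were detected. Each sex has 1 library and hence no replicate, so each comparison is between these libraries, no p-value was computed, and each interval covers counting error only.

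Plant miRNAs are cut as short duplexes from the 2 arms of a hairpin, after which one strand guides an ARGONAUTE protein to matching transcripts and the other is usually degraded. In Arabidopsis, miR395 builds up when sulphate is short and directs cleavage of transcripts for ATP sulphurylases, the enzymes that activate sulphate, and of a sulphate transporter. miR2111 builds up there when phosphate is short, and in the legume Lotus it moves from shoot to root and represses an F-box protein that restrains nodulation. The names in the tables carry no arm or member letter, so members of a family could not be told apart.

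The sequences listed for the members are shown first because they decide what the reads of each name can be compared with. Capitals mark the seed, bases 2 to 8 from the 5′ end, and T stands for U as in the files.
miR395, female library: cAGAAGTGtttggggggactc
miR395, male library: cAGAAGTGtttggggggactc
miR2111, female library: tAATCTGCatcctgaggtttg
miR2111, male library: aTCTTTAGaatgcagcatgac

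For miR395 both libraries listed the same 21 bases. It begins with C, a first base shared by 10.6% of the names in female leaves and 9.21% in male leaves. It holds a run of 6 G, which 1 other name had in female leaves and 0 other names in male leaves, and its GC content was 57.1% against a median of 42.9% over the names of either library. For miR2111 the libraries listed different sequences, each also of 21 bases. The female one begins with T, as did 50.2% of the names there, and the male one begins with A, as did 31% of the names there. In Arabidopsis the first base bears on which ARGONAUTE protein takes a miRNA up.

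The 2 miR2111 sequences were 13 edits apart, counting single-base changes, insertions and deletions, while the female one lay 9 edits from the male one's reverse complement. Their seeds alone were 5 edits apart. Paired with each other by predicted folding, the 2 sequences formed a duplex of 12 base pairs, 10 of them Watson-Crick and 2 of them G:U wobble pairs, with an energy of -13.8 kcal/mol. The strands are printed again with the bases paired in this fold in capitals.
miR2111, female library: taatCTGCATcCTGAGGtttg
miR2111, male library: atCTTTAGaATGCAGcatgac
The paired stretch left 4 bases unpaired at the 3′ end of the female strand, facing 2 at the 5′ end of the male strand, and 6 at the 3′ end of the male strand, facing 4 at the 5′ end of the female strand. Subtracting the facing unpaired bases, each 3′ end reached 2 bases past the other strand's 5′ end. Read straight through at that offset, 15 of 19 facing positions could pair, 12 by Watson-Crick and 3 by wobble pairs. Duplexes cut from plant hairpins typically carry short 3′ overhangs.

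Some other names also had a female sequence near the reverse complement of the male one, and several names paired more strongly than miR2111. Of 339 names found in both libraries, 151 had the same sequence and 188 had different ones. Among the 154 names more than 2 edits apart, 23 (14.9%), miR2111 included, lay 9 or fewer edits from the reverse complement. Not all of these were nearer to it than to the direct sequence: for miR5054 it was 8 edits away and the direct sequence 4. Names nearer to the reverse complement than to the direct sequence also numbered 23 of the 154, miR2111 included. The median duplex energy over those 188 names was -6.05 kcal/mol, and 14 of them (7.45%), miR2111 included, had -13.8 kcal/mol or lower. Among them were conserved families with lower energies than miR2111: miR394 at -28.6 kcal/mol, miR396 at -28.5, miR167 at -25.3, miR160 at -24.7 and miR393 at -19.8. The 14 also held names whose 2 sequences were nearly the same, such as miR1424 (1 edit apart, -19.4 kcal/mol) and miR5225 (3 edits apart, -16.7). A low energy thus does not by itself mark opposite strands. At least 15 paired positions at the 2-base offset were found for 6 of the 188, against a median of 7. Beside miR2111 these were miR396 with 17 positions, miR160 and miR5237 with 16 each, and miR167 and miR7812 with 15 each. Unlike miR2111, miR7812 and miR5237 had nearly the same sequence in both libraries, 1 and 4 edits apart, and lay 11 edits from the reverse complement. The best fold itself placed both 3′ ends 2 bases past the facing 5′ ends for 2 of the 188, miR2111 and miR863, which had 1 read in each library and -5.8 kcal/mol. The conserved families named above, with lower energies than miR2111, had other placements. Their female and male 3′ ends reached 1 and 1 bases past for miR160 and miR167, and 3 and 1 for miR396. For miR394 the values were 1 and 2, and for miR393 they were 0 and 0. No hairpin of miR2111 was used here, so the arm of either sequence was not assigned. A description by pairing does not show that both strands come from 1 precursor.

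**Figure D1:**
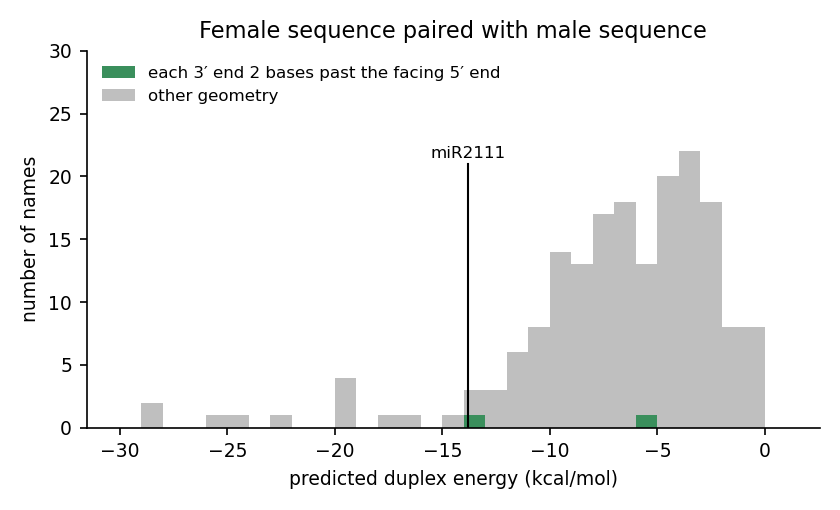
Predicted energy, in kcal/mol, of the female sequence paired with the male sequence (x axis) for the 188 names with different listed sequences, as the number of names (y axis). miR2111, marked by the line, had -13.8 kcal/mol against a median of -6.05, and it is 1 of the 2 names shown in green, whose best fold places each 3′ end 2 bases past the facing 5′ end. The lowest energy was -28.6 kcal/mol.

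No other listed sequence lay close to a member's. In either library, 0 other names shared the seed of a member and 0 shared a stretch of 16 or more bases with one. For miR395 the nearest listed sequence of another name was 9 edits away in female leaves and 8 in male leaves. The female miR2111 sequence was at least 9 edits from every other name of its own library, and at least 8 from every other name of the male library. The male miR2111 sequence was at least 8 edits from every other name of its own library and at least 7 from every other name of the female library. The sequence listed for miR2111 in one library was thus not listed in the other library under another name.

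miR395 was the higher of the members in the female library and the lower one in the male library. It had 154 reads in the female library, which is 11.7 RPM (reads scaled to the depth given above, exact Poisson 95% interval 9.90 to 13.7). In the male library it had 75 reads, which is 6.18 RPM (4.86 to 7.75). The intervals of the 2 levels did not overlap, and the level was higher in the female library. By reads it ranked 164 of 530 names in female leaves and 200 of 532 in male leaves.

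The female over male ratio of miR395 was 1.89, with an exact conditional binomial 95% interval of 1.42 to 2.52 that holds 2-fold within it. By log2 of (female RPM + 1) over (male RPM + 1) (a scale on which differences between low values shrink) it stood at 0.82 and so lay within 2-fold. When the libraries were scaled by the median ratio of 117 names that reached 10 RPM in both, which raised female values by 0.23 on the log2 scale, miR395 passed 2-fold at 1.03. Of 96 names that reached 10 RPM in 1 or both libraries and had 1 sequence listed in both, 7 (7.29%) passed 2-fold toward the female library. The quartiles of those 96 names were -0.73 and 0.22, and 10 of them had a higher log2 ratio than miR395.

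miR2111 went the other way. It had 15 reads in the female library, which is 1.14 RPM (0.636 to 1.88), and 148 reads in the male library, which is 12.2 RPM (10.3 to 14.3). The name thus held 0.000608% of the known miRNA reads in female leaves and 0.00605% in male leaves. It ranked 279 of 530 and 166 of 532 by reads. The female over male ratio was 0.0932 (0.0509 to 0.159), which makes the name 10.7-fold higher in the male library (6.30 to 19.6).

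On the log2 scale with 1 RPM added the ratio of miR2111 was -2.63, and -0.99, within 2-fold, with 10 RPM added. Of the 2 members, 1 was thus past 2-fold, beside 62.5% of all 232 names that reached 10 RPM in 1 or both libraries. In the direction of miR395, 29.3% of the 232 passed 2-fold, and in that of miR2111, 33.2%. Among the 73 such names with different listed sequences, 39.7% passed 2-fold toward the male library, and 20 of the 73 had a lower log2 ratio than miR2111. The quartiles of these 73 names were -3.33 and 2.66, a range that holds miR2111. It is not stated whether a count covers all reads of a name or only the listed sequence. A different level of miR2111 and a different sequence counted under the name thus cannot be told apart.

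**Figure D2:**
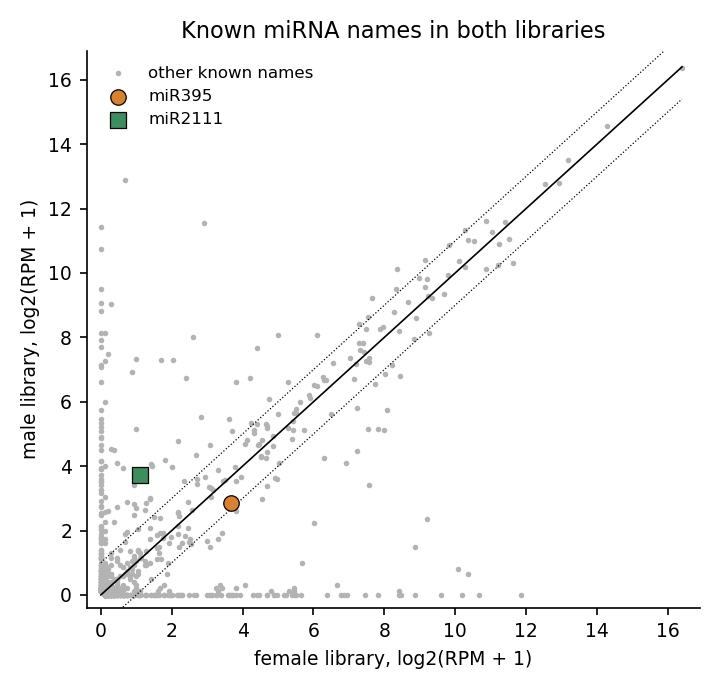
Level of each of the 723 known names in the female library (x axis) and the male library (y axis), both as log2 of RPM plus 1, with miR395 as a circle and miR2111 as a square. The solid line marks equal levels and the dotted lines 2-fold, and miR2111 (-2.63) lies beyond 2-fold on the male side while miR395 (0.82) lies within it on the female side.

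Set against each other inside a library, the members changed places. The reads of miR395 over those of miR2111 gave 10.3 in female leaves (interval 6.03 to 18.8) and 0.507 in male leaves (0.379 to 0.673). This ratio needs no scaling between libraries, and it was 20.3-fold higher in the female library. The listed miR2111 sequence differed between the libraries. In each ratio with miR2111 a different level and a different sequence counted under the name thus cannot be told apart. A like reversal was seen against miR399, another phosphate family, which in Arabidopsis represses a ubiquitin-conjugating enzyme that limits phosphate uptake. miR2111 had 0.50 reads per read of miR399 in the female library (0.250 to 0.959) and 10.6 in the male library (6.10 to 19.8). For miR395 over miR399 the values were 5.13 (3.45 to 7.87) and 5.36 (3.0 to 10.3), intervals that overlap widely. The ratio of miR395 to miR399 thus differed by 0.958-fold between the libraries, while both of these names had the same listed sequence in each.

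**Figure D3:**
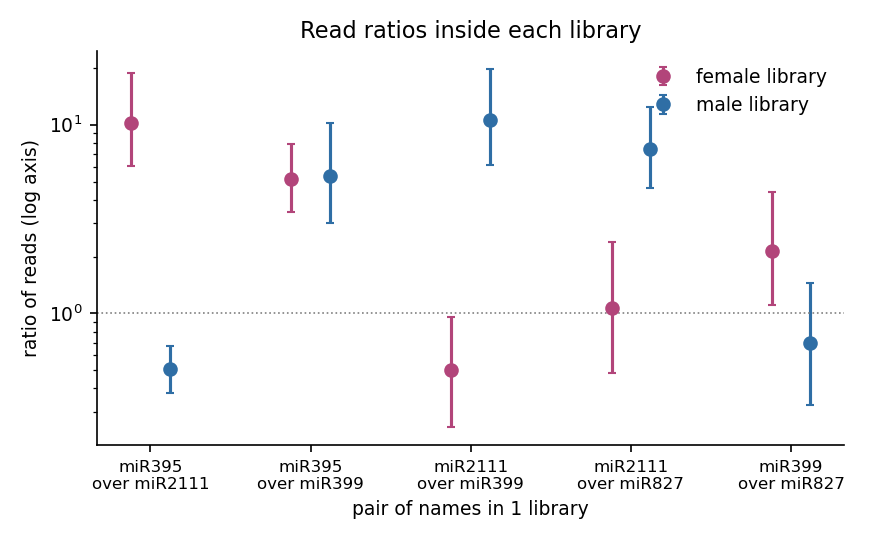
Ratio of reads between pairs of names inside 1 library (y axis, log scale) for 5 pairs (x axis), with exact 95% intervals for counting error. Each of the 3 pairs that include miR2111, whose listed sequence differed between the libraries, has intervals that do not overlap between them. miR395 over miR399 stood at 5.13 in female and 5.36 in male leaves. miR399 over miR827 stood at 2.14 and 0.70, with intervals that overlap.

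Other phosphate names were scarcer than the higher value of either member. miR399 had 30 reads in female leaves and 14 in male leaves, 2.27 and 1.15 RPM, a female over male ratio of 1.97 (1.01 to 4.02). miR827, which in Arabidopsis represses an SPX-domain protein of phosphate balance, had 14 reads in female leaves and 20 in male leaves. Its ratio of 0.644 had an interval of 0.301 to 1.34, which holds equality. Beside miR827, miR2111 had 1.07 times as many reads in the female library (0.482 to 2.40) and 7.40 times as many in the male library (4.62 to 12.5). Unlike miR2111, miR399 and miR827 were each listed with 1 sequence that did not differ between the libraries.

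Of 11 nutrient families listed for sulphate, phosphate, copper and nitrogen, 8 were among the 723 names, and miR778, miR826 and miR5090 were not analysed here. Of the 8, 6 reached 10 RPM in 1 or both libraries, among them both members. Of these 6, miR2111 alone passed 2-fold toward the male library, 0 did so toward the female library and 5 lay within 2-fold. Over all 232 names at that minimum, 33.2% passed toward the male library and 29.3% toward the female library. The median log2 ratio of the 8, which include miR399 and miR827 below 10 RPM, was -0.25. Over the 232 names that reached 10 RPM in 1 or both libraries it was -0.27, so the 2 medians cover unlike sets. The 4 copper families exceeded both members in each library. Their highest, miR397, which represses laccases, had 31944 reads in female leaves and 23173 in male leaves. Their lowest, miR398, a regulator of copper superoxide dismutase, had 253 and 413.

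In the female library the 8 families ran in the order miR397, miR408, miR857, miR398, miR395, miR399, miR2111 and miR827. There the counting interval of miR395 overlapped neither neighbour's, while that of miR2111 overlapped those of miR399 and miR827. In the male library miR2111 came next after the 4 copper families, followed by miR395, miR827 and miR399, and the interval of neither member overlapped a neighbour's. The listed sequence was the same in both libraries for 6 of the 8 families. The exceptions were miR2111, with sequences 13 edits apart, and miR398, with sequences 2 edits apart.

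**Figure D4:**
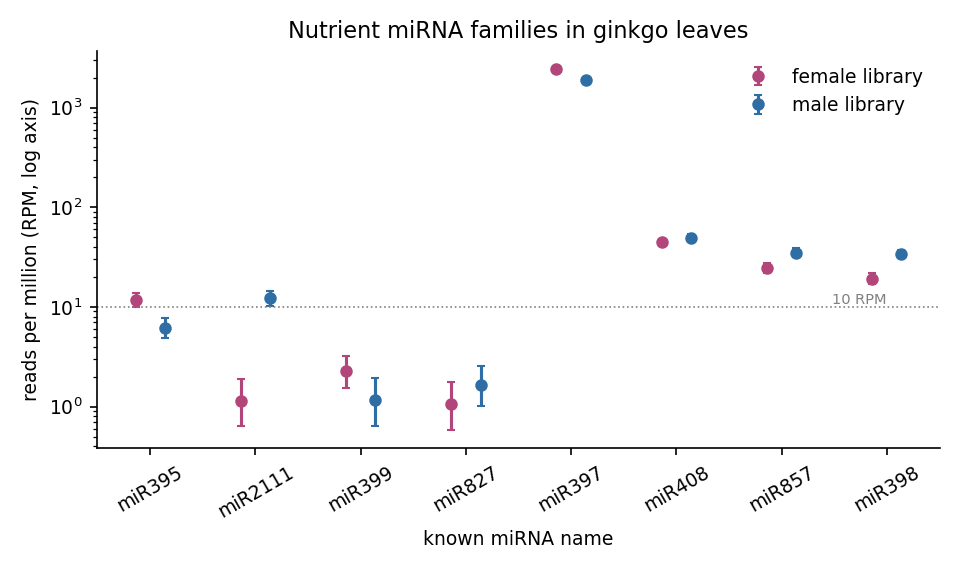
Level in RPM (y axis, log scale) of the 8 measured nutrient families (x axis) in the female and the male library, with exact Poisson 95% intervals. miR395 lies above 10 RPM in the female library only (11.7 against 6.18), miR2111 in the male library only (1.14 and 12.2), and the 4 copper families lie above both in each library.

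The names nearest to each member in level, by distance in log2 of RPM plus 1 over these 2 libraries, were not near in sequence. Those nearest to miR395 were miR5237 (172 female and 62 male reads), miR161 (100 and 87) and miR829 (106 and 105), each at least 11 edits from it in the female library. Those nearest to miR2111 were miR5718 (13 female and 138 male reads), miR6457 (12 and 117) and miR6116 (23 and 184), each at least 12 edits from its female sequence. Of these last, miR6457 had different sequences listed in the libraries and miR5718 and miR6116 did not. A likeness over 2 libraries rests on 2 values per name.

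The target tables hold the authors' lists of target transcripts per name, which are predictions and not measured cleavage. For miR395 they listed 0 targets in either library, while 380 names in female leaves and 340 in male leaves had at least 1. Of the 151 names with the same sequence in both libraries, 41 (27.2%), miR395 included, had 0 targets in both. Of the 8 nutrient families, miR395 was the only one with 0 in both. The annotation fields of the target tables are empty, so ATP sulphurylases or sulphate transporters could not be looked for among the ginkgo transcripts.

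For miR2111 there were 4 predicted targets in female leaves and 0 in male leaves, so 0 were shared. The first in the file, CL6119.Contig1 and CL6119.Contig2, are contigs of 1 cluster by their names, and what they encode is not given. All 4 were listed for miR2111 alone: 0 other known names and 0 predicted miRNAs of either library had any of them. Such exclusive listing was usual, since 92.6% of 2116 distinct targets of known names in the female library belonged to 1 name. Targets for the female sequence with 0 for the male sequence occurred for 45 of the 188 names with different sequences (23.9%), and the reverse for 30. The 4 targets belong to the female sequence printed above, listed where the name had 15 reads, and the male sequence, listed where it had 148 reads, had none. By contrast miR399 and miR827, with 1 sequence each, had 2 and 4 targets in both libraries.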

How the data were processed

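Small RNA libraries of female and male ginkgo leaves, 1 each, were analysed from the authors' deposited tables. The deposited level tables are named TPM by the authors but hold RPM: 100% of values above 0 and below 60 RPM were whole reads to within 0.01 read, and 1 read equalled 0.0758 RPM for female and 0.0824 RPM for male leaves. The second deposited table of the authors gives raw read counts and 1 sequence per name. The deposited target tables give another kind of value, a number of predicted targets. The sources used here name no aligner, miRNA database or target tool. A count test needs replicates, so none was run. Ratios carry exact conditional binomial and levels exact Poisson 95% intervals (scipy 1.17.1), for counting error only, as reads are PCR products without molecular identifiers. Duplexes were folded with RNAduplex (ViennaRNA 2.7.2). A name was called where it reached 10 RPM in 1 or both libraries and was 2-fold apart by log2 of RPM plus 1. Alternatives were other pseudocounts, minimums, scalings and thresholds. The fold calls and ratio intervals were tried on simulated Poisson counts, which did not cover the sequence, duplex or target steps. Members and lists were chosen with earlier results of these data known. The text names the members, the nutrient list, names with a shared seed or a stretch of 16 bases, the 3 names nearest in level and up to 2 target identifiers. Other names in the sequence comparison were chosen after their values were seen. Levels of predicted miRNAs were not used.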

Additional observations from a re-analysis of the deposited data

How the results depend on the processing

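The direction of both members held under every pseudocount and scaling tried. miR395 ranged from 0.42 with 10 RPM added to 1.03 with scaling by the median ratio, the only setting that put it past 2-fold. miR2111 ranged from -3.42 with no pseudocount, a setting chosen after seeing the data, to -0.99 with 10 RPM added, the only setting that put it within 2-fold. A larger pseudocount shrinks low values by construction. The names at least 2-fold higher numbered 68 in female leaves and 77 in male leaves. They numbered 117 and 132 with no minimum, 32 and 34 with a minimum of 100 RPM, and 7 and 19 among names with the same listed sequence, where more or fewer names were tested by construction. The miR2111 sequences differed by 13 edits as a whole and 5 within bases 2 to 8. Counts of shared targets were 0 for both members with identifiers as listed or without suffixes. No paired analysis was possible because there was 1 library per sex. Depth limits the low counts, such as the 15 female reads of miR2111, the 14 female reads of miR827 and the 14 male reads of miR399.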
